A study of Saccharomyces cerevisiae with 13 samples.

Results

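The TOR complex and effector genes are 10 yeast genes, TOR1, TOR2, KOG1, LST8, TCO89, SCH9, TAP42, SIT4, FPR1 and NPR1, that encode the target of rapamycin kinases, their partners and the proteins they act through. They were listed by name, and each was read from the probe set of that name with the highest mean. Of the 10 genes, 9 had a probe set among the 5449 genes measured, each with 1 probe set, and none of the 9 probe sets bore the name endings that mark probes shared between similar transcripts. FPR1, which encodes the immunophilin that binds rapamycin, had no probe set named for it in the probe table and was not analysed here.

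TOR kinases couple growth to nutrients and sit in a pair of complexes. TOR complex 1 (TORC1) holds Tor1 or Tor2 with Kog1, Lst8 and Tco89, promotes ribosome production, and is inhibited by rapamycin bound to Fpr1. TOR complex 2 (TORC2) holds Tor2 and Lst8 and is not acutely inhibited by rapamycin. TORC1 acts through the kinase Sch9, which promotes growth, and through Tap42, which binds PP2A-like phosphatases such as Sit4 and restrains them. When TORC1 activity drops, the phosphatase branch leads to dephosphorylation of the kinase Npr1, which controls nutrient permeases. These are mainly controls on protein activity, whereas the arrays measured mRNA.

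All samples were strain BY4741, a haploid laboratory yeast without functional URA3, LEU2, MET17 and HIS3 genes, grown to mid-log phase in the rich medium YPD and treated for 30 min. The groups were DMSO, the solvent control (n = 3 arrays), 100 nM rapamycin (Rapa, n = 2), 20 µM SMER1 (n = 2), 20 µM SMER1 with 100 nM rapamycin (SMER1+Rapa, n = 2), and 20 µM of SMER2, of SMER3, of SMER4 or of SMER5 (n = 1 each). SMERs are small molecule enhancers of rapamycin, known here by code name, and the study set their expression profiles against solvent and against rapamycin. Nothing in the labels says that replicates came from separate cultures, so p-values measure the spread between these arrays, which may be technical. RNA came from whole cultures, so a change in every cell and a larger change in some cells cannot be told apart.

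Values are log2 signal intensities, on which a difference of 1 is a 2-fold change, and no gene's level is set against another gene's. Array medians lay between 10.99 and 11.07, and Pearson's r across genes between arrays sharing a treatment was 0.984 to 0.992. The a-cell genes STE2, MFA1, MFA2, BAR1, STE6 and AGA2, which the MATa strain should express, lay between 11.19 and 13.93 on the 13 arrays, and the alpha-cell genes STE3, MF(ALPHA)1 and MF(ALPHA)2 between 2.74 and 8.49, while the alpha-agglutinin gene SAG1 lay between 9.84 and 10.43. The deleted genes URA3, MET17 and LEU2 lay between 1.97 and 8.61, and HIS3, only partly deleted, between 12.14 and 13.18. Differences come with their standard error (SE) from a limma model fitted to all genes, and "called" means an adjusted p (Benjamini-Hochberg, over all genes) under 0.05.

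**Figure D1:**
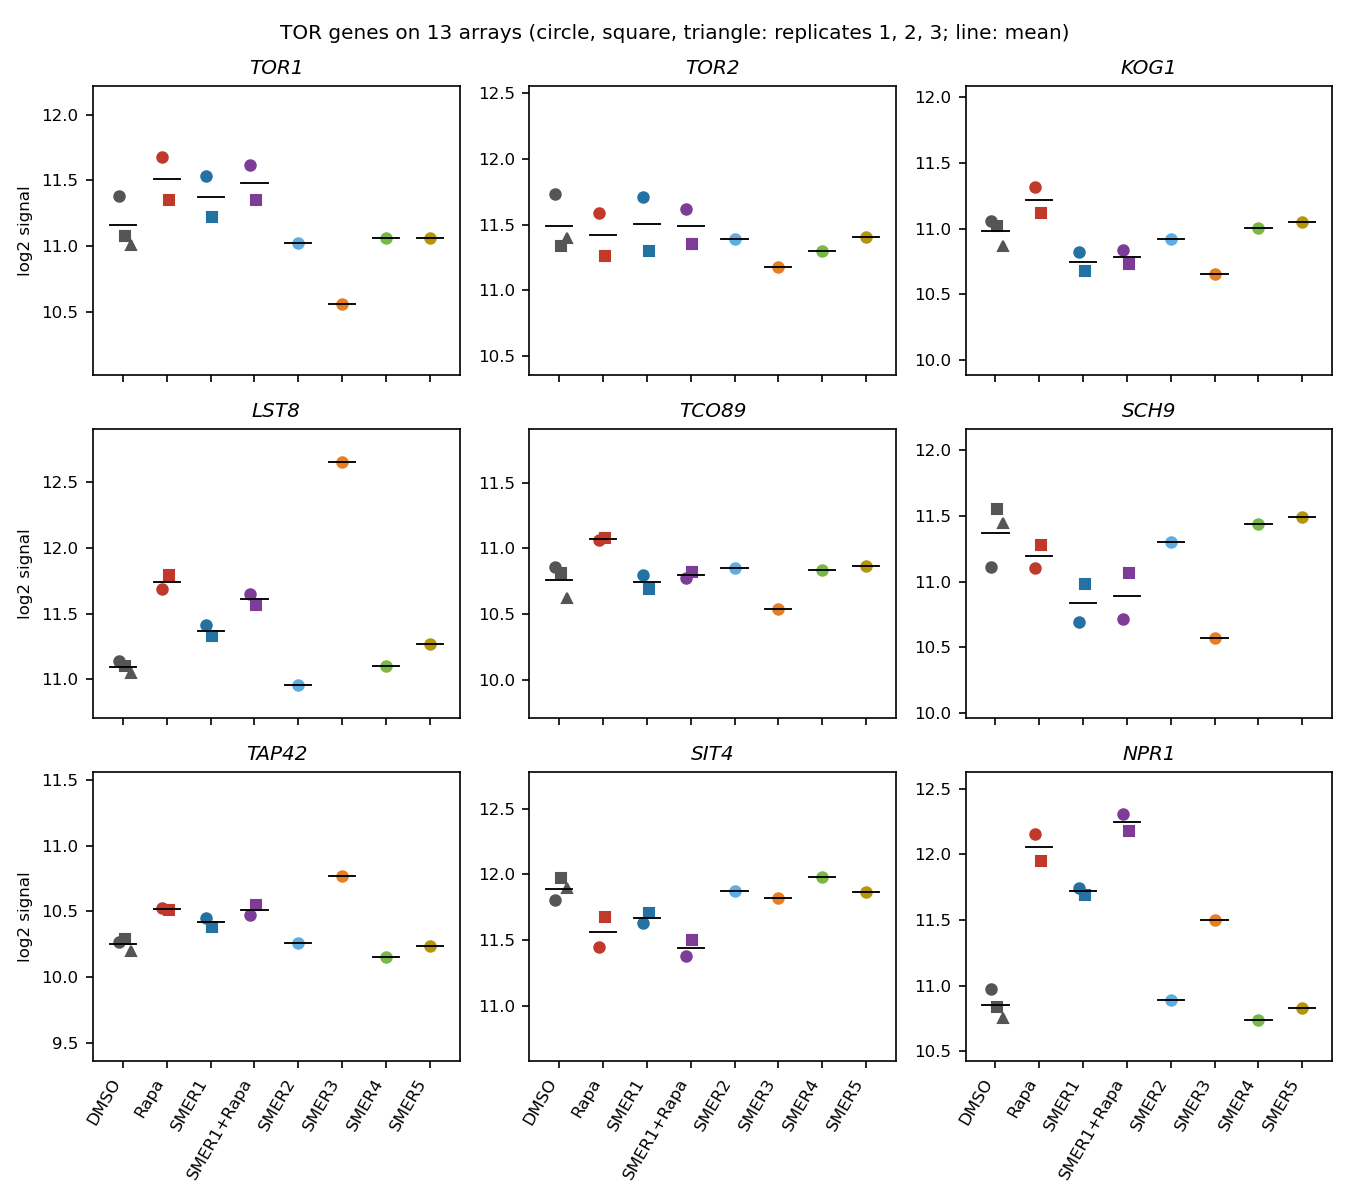
Log2 signal of the 9 measured TOR genes (y axis, the same span in every panel) on each of the 13 arrays, by treatment group (x axis); circles, squares and triangles are replicates 1, 2 and 3 and lines are group means. NPR1 and LST8 lie above DMSO with rapamycin, SMER1, SMER1+Rapa and SMER3, and the highest LST8 value, 12.65, is that of the lone SMER3 array.

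With rapamycin, NPR1, LST8, TCO89 and TAP42 rose and SIT4 fell, while TOR1, TOR2, KOG1 and SCH9 were not called. That is 5 of 9 measured genes called by limma, 4 higher and 1 lower, in a comparison where 60.1% of all genes were called, 39.7% higher and 20.4% lower. With SMER1, NPR1, LST8 and TAP42 rose and SCH9 fell, 4 of 9 where 61.5% of all genes were called (36.5% higher and 25% lower). With SMER1+Rapa, NPR1, LST8 and TAP42 rose and SCH9 and SIT4 fell, 5 of 9 where 70.8% were called (39.6% higher and 31.2% lower). The shares of TOR genes called, 55.6%, 44.4% and 55.6%, were thus near or below those of all genes. Their median absolute changes were 0.31, 0.22 and 0.33, against 0.39, 0.41 and 0.54 over all genes. These 3 comparisons share the DMSO arrays. Leaving out any 1 array also lowered the all-gene counts with rapamycin and with SMER1. Without DMSO replicate 2 they went from 3276 to 3007 with rapamycin and from 3352 to 3074 with SMER1, of 5449 genes. With 1 array left out at a time, 3 to 6 TOR genes were called with rapamycin, the lowest without Rapa replicate 1. With SMER1 only 1 to 3 were called, 1 without SMER1 replicate 1 and 2 without DMSO replicate 2.

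**Figure D2:**
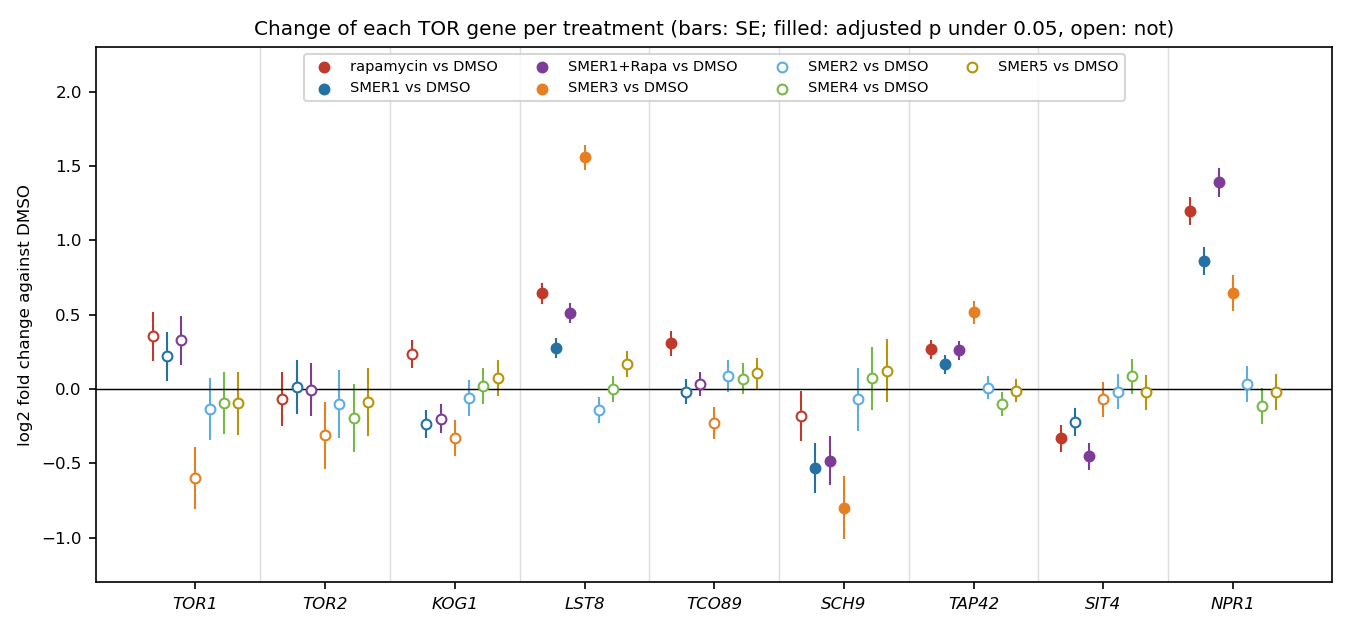
Log2 fold change of each TOR gene against DMSO (y axis) in the 7 treatments (colours), with the SE from limma as bars; filled points were called at an adjusted p under 0.05 and open points were not. NPR1 reaches 1.39 with SMER1+Rapa, LST8 reaches 1.56 with SMER3, and SCH9 falls to −0.80 with SMER3, while every point of SMER2, SMER4 and SMER5 is open.

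NPR1 had the largest change of the 9 genes in the 3 replicated treatments. Its log2 signal was 10.97, 10.84 and 10.75 on the DMSO arrays, 12.16 and 11.95 with rapamycin, 11.75 and 11.69 with SMER1, and 12.31 and 12.18 with SMER1+Rapa. Every treated array of these groups lay above every DMSO array. NPR1 rose 2.29-fold with rapamycin (log2 1.20 ± 0.10, adjusted p = 3.78e-05 by limma), 1.82-fold with SMER1 (0.86 ± 0.10, adjusted p = 0.000160) and 2.62-fold with SMER1+Rapa (1.39 ± 0.10, adjusted p = 8.18e-06). The rapamycin change of NPR1 was larger in size than that of 88.4% of all genes. On the lone arrays NPR1 lay at 11.50 with SMER3, and at 10.89, 10.74 and 10.83 with SMER2, SMER4 and SMER5. In the order of group means, NPR1 ran from SMER1+Rapa through Rapa, SMER1 and SMER3 to SMER2, DMSO, SMER5 and SMER4. Only the steps from Rapa to SMER1 (0.33) and from SMER3 to SMER2 (0.61) were wider than 2 SE of the step.

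LST8, which encodes the WD-repeat subunit common to both TOR complexes, was the subunit gene with the largest changes. Its values were 11.14, 11.10 and 11.05 with DMSO, 11.69 and 11.79 with rapamycin, 11.41 and 11.33 with SMER1, and 11.65 and 11.57 with SMER1+Rapa. Again no treated array overlapped the DMSO arrays. LST8 rose 1.56-fold with rapamycin (0.64 ± 0.07, adjusted p = 0.000145 by limma), 1.21-fold with SMER1 (0.27 ± 0.07, adjusted p = 0.00943) and 1.43-fold with SMER1+Rapa (0.51 ± 0.07, adjusted p = 0.000295). The SMER1 call of LST8 was lost without SMER1 replicate 1 (0.23, adjusted p = 0.0695). LST8 was highest on the lone SMER3 array, at 12.65, and lay at 10.96, 11.10 and 11.27 with SMER2, SMER4 and SMER5. The steps from SMER3 to Rapa (0.91) and from SMER1+Rapa to SMER1 (0.24) were wider than 2 SE, and the other neighbours in the order of LST8 were not.

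The kinase genes themselves were not called in the replicated groups. TOR1 lay at 11.38, 11.08 and 11.01 with DMSO, at 11.68 and 11.35 with rapamycin, at 11.53 and 11.22 with SMER1, and at 11.61 and 11.35 with SMER1+Rapa. Each treated group of TOR1 overlapped the DMSO arrays because the DMSO array numbered 1 was high. The TOR1 differences were 0.36 ± 0.17, 0.22 ± 0.17 and 0.33 ± 0.17, with 95% intervals of −0.03 to 0.74, −0.17 to 0.61 and −0.06 to 0.71 (adjusted p = 0.0995, 0.281 and 0.112 by limma). The rapamycin difference of TOR1 was no smaller than the called ones of TCO89, TAP42 and SIT4, but its spread between replicates was larger. Without DMSO replicate 1 the rapamycin and SMER1+Rapa differences of TOR1 were called, at 0.47 and 0.44 (adjusted p = 0.0425 and 0.0459).

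TOR2, whose product serves in both complexes and is essential for growth, lay between 11.26 and 11.73 on the 9 arrays of the replicated groups. Its mean was 11.49 with DMSO, 11.42 with rapamycin, 11.50 with SMER1 and 11.49 with SMER1+Rapa, and the groups overlapped. The differences of TOR2 from DMSO were −0.07 ± 0.18, 0.01 ± 0.18 and 0.00 ± 0.18 (adjusted p = 0.773, 0.950 and 0.985 by limma), with 95% intervals within −0.49 and 0.44. The order of TOR1 means ran from Rapa, SMER1+Rapa and SMER1 through DMSO, SMER4, SMER5 and SMER2 to SMER3. In none of TOR1, TOR2, KOG1, TCO89, SCH9 and SIT4 were neighbouring group means farther apart than 2 SE.

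KOG1 and TCO89 encode subunits found in TORC1 and not in TORC2. KOG1, the counterpart of mammalian Raptor, lay at 11.06, 11.02 and 10.87 with DMSO, above that at 11.32 and 11.12 with rapamycin, and below it at 10.82 and 10.68 with SMER1 and at 10.84 and 10.73 with SMER1+Rapa. None of these 3 treated groups of KOG1 overlapped DMSO, yet the differences of 0.24 ± 0.10, −0.23 ± 0.10 and −0.20 ± 0.10 were not called (adjusted p = 0.0643, 0.0661 and 0.0976 by limma). They were near the threshold: KOG1 with rapamycin was called without Rapa replicate 2 (0.34, adjusted p = 0.0448), and KOG1 with SMER1 was called without DMSO replicate 3 (−0.29, adjusted p = 0.0378) and after quantile normalisation (−0.25, adjusted p = 0.0429).

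TCO89 lay at 10.86, 10.81 and 10.62 with DMSO and at 11.06 and 11.08 with rapamycin, so the rapamycin arrays lay above all DMSO arrays. It rose 1.24-fold (0.31 ± 0.08, adjusted p = 0.0145 by limma), a call lost without either Rapa array (0.32 and 0.30, adjusted p = 0.0585 and 0.0675). With SMER1 (10.80 and 10.69) and SMER1+Rapa (10.78 and 10.82), TCO89 overlapped DMSO, with differences of −0.02 ± 0.08 and 0.03 ± 0.08.

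SCH9, the gene of the main growth-promoting kinase substrate of TORC1, fell where SMER1 was present. It lay at 11.11, 11.55 and 11.45 with DMSO, 10.69 and 10.98 with SMER1, and 10.72 and 11.06 with SMER1+Rapa, without overlap with DMSO, and at 11.10 and 11.28 with rapamycin, which overlapped it. SCH9 fell 1.45-fold with SMER1 (−0.53 ± 0.17, adjusted p = 0.0261 by limma) and 1.40-fold with SMER1+Rapa (−0.48 ± 0.17, adjusted p = 0.0334), while the rapamycin difference was −0.18 ± 0.17 (adjusted p = 0.391). The SMER1 call was lost without DMSO replicate 2, DMSO replicate 3 or SMER1 replicate 1 (−0.44, −0.49 and −0.39, adjusted p = 0.0755, 0.0693 and 0.161). The SMER1+Rapa call was lost without either of the same DMSO arrays or SMER1+Rapa replicate 1 (−0.39, −0.44 and −0.31, adjusted p = 0.0947, 0.0850 and 0.221). All 4 arrays with SMER1 lay below both rapamycin arrays for SCH9, but the differences from rapamycin were not called (−0.35 ± 0.18 with SMER1 and −0.30 ± 0.18 with SMER1+Rapa, adjusted p = 0.174 and 0.214). On the lone arrays SCH9 lay at 10.57 with SMER3, its lowest value, and at 11.30, 11.44 and 11.49 with SMER2, SMER4 and SMER5.

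TAP42 rose and SIT4 fell with rapamycin and with SMER1+Rapa. TAP42, the regulator of PP2A-like phosphatases, lay at 10.26, 10.29 and 10.20 with DMSO, 10.52 and 10.51 with rapamycin, 10.45 and 10.38 with SMER1, and 10.47 and 10.55 with SMER1+Rapa, with no overlap. TAP42 rose 1.20-fold with rapamycin (0.27 ± 0.06, adjusted p = 0.00719 by limma) and 1.20-fold with SMER1+Rapa (0.26 ± 0.06, adjusted p = 0.00643), the latter lost without SMER1+Rapa replicate 2 (0.22, adjusted p = 0.0595). Its 1.12-fold rise with SMER1 (0.17 ± 0.06, adjusted p = 0.0485) sat at the threshold and was lost when any 1 of the 9 arrays of the replicated groups was left out (0.13 to 0.20, adjusted p between 0.0681 and 0.223). On the lone arrays TAP42 lay at 10.77 with SMER3, its highest value, and between 10.15 and 10.26 with the others. The step from SMER3 to Rapa (0.25) was the only one in the order of TAP42 wider than 2 SE.

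SIT4, the PP2A-like phosphatase gene, lay at 11.80, 11.97 and 11.89 with DMSO, 11.44 and 11.68 with rapamycin, 11.63 and 11.71 with SMER1, and 11.38 and 11.50 with SMER1+Rapa, so every treated array lay below every DMSO array. SIT4 fell 1.26-fold with rapamycin (−0.33 ± 0.09, adjusted p = 0.0165 by limma) and 1.37-fold with SMER1+Rapa (−0.45 ± 0.09, adjusted p = 0.00303). The rapamycin call was lost without DMSO replicate 2 or Rapa replicate 1 (−0.29 and −0.21, adjusted p = 0.0521 and 0.127). On the lone SMER2, SMER3, SMER4 and SMER5 arrays SIT4 lay between 11.82 and 11.98. With SMER1 the difference of SIT4 was −0.22 ± 0.09 (adjusted p = 0.0714), and it was called after quantile normalisation (−0.32, adjusted p = 0.0176).

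The values for comparisons with DMSO rest on the scaling of the arrays. Quantile normalisation shifted the median change of all genes from 0.16 to 0.02 with rapamycin, from 0.09 to −0.05 with SMER1 and from 0.02 to −0.10 with SMER3. Relative to the all-gene median of 0.16, the rapamycin changes of TCO89 and TAP42 (0.31 and 0.27) were small, and after quantile normalisation they were 0.28 and 0.23, both still called (adjusted p = 0.0171 and 0.00795 by limma).

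Set directly against rapamycin, SMER1 left 4 of the 9 genes lower and 0 higher, in a comparison where 36.8% of all genes were called, 19.7% lower and 17.1% higher (n = 2 arrays each). KOG1 was lower by 1.39-fold (−0.47 ± 0.10, adjusted p = 0.0112 by limma), LST8 by 1.29-fold (−0.37 ± 0.07, adjusted p = 0.00777), TCO89 by 1.25-fold (−0.33 ± 0.09, adjusted p = 0.0274) and NPR1 by 1.26-fold (−0.33 ± 0.10, adjusted p = 0.0409). For each of these 4 genes both SMER1 arrays lay below both rapamycin arrays. KOG1, LST8 and TCO89 encode TORC1 subunits, and NPR1 encodes a kinase downstream. The calls rested on few arrays. KOG1 was not called without SMER1 replicate 2 or Rapa replicate 1 (−0.40 and −0.37, adjusted p = 0.0714 and 0.0663), and LST8 not without SMER1 replicate 2 (−0.33, adjusted p = 0.0542). TCO89 was not called without any 1 of the 4 arrays compared (adjusted p between 0.0558 and 0.141). NPR1 was not called without DMSO replicate 2, either SMER1 array, either SMER1+Rapa array or Rapa replicate 1 (−0.23 to −0.36, adjusted p between 0.0578 and 0.203).

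Adding SMER1 to rapamycin lowered KOG1 and TCO89 relative to rapamycin alone, 2 of 9 genes where 46.4% of all genes were called, 28.2% lower and 18.1% higher (n = 2 arrays each). KOG1 was lower by 1.35-fold (−0.44 ± 0.10, adjusted p = 0.0123 by limma) and TCO89 by 1.21-fold (−0.27 ± 0.09, adjusted p = 0.0428). Both SMER1+Rapa arrays lay below both rapamycin arrays for each gene. KOG1 was not called without SMER1+Rapa replicate 2 or Rapa replicate 1 (−0.38 and −0.34, adjusted p = 0.0760 and 0.0687). TCO89 was not called without DMSO replicate 2 or any 1 array of SMER1, SMER1+Rapa or rapamycin (adjusted p between 0.0565 and 0.158), nor after quantile normalisation (−0.22, adjusted p = 0.0683). NPR1 and LST8 differed by 0.19 ± 0.10 and −0.13 ± 0.07 (adjusted p = 0.171 and 0.190).

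The effect of SMER1 on NPR1 and LST8 depended on whether rapamycin was present. Without rapamycin SMER1 raised NPR1 by 0.86 and LST8 by 0.27, and on top of rapamycin the differences were 0.19 and −0.13. The interaction, the second effect minus the first, was −0.67 ± 0.14 for NPR1 and −0.41 ± 0.10 for LST8 (adjusted p = 0.0133 and 0.0253 by limma). These were 2 of 9 genes called, both negative, where 25.7% of all genes were called, 21.3% negative and 4.42% positive, and the median interaction over all genes was −0.18. After quantile normalisation, which moved that median to 0.00, the values were −0.63 and −0.35 (adjusted p = 0.0140 and 0.0327). The NPR1 call was lost without SMER1+Rapa replicate 2 (−0.61, adjusted p = 0.0568). The LST8 call was lost without DMSO replicate 2, SMER1 replicate 1, either SMER1+Rapa array or Rapa replicate 2 (−0.35 to −0.45, adjusted p between 0.0542 and 0.0979). KOG1 and TCO89 had interactions of −0.20 ± 0.14 and −0.25 ± 0.12 that were not called (adjusted p = 0.330 and 0.170).

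**Figure D3:**
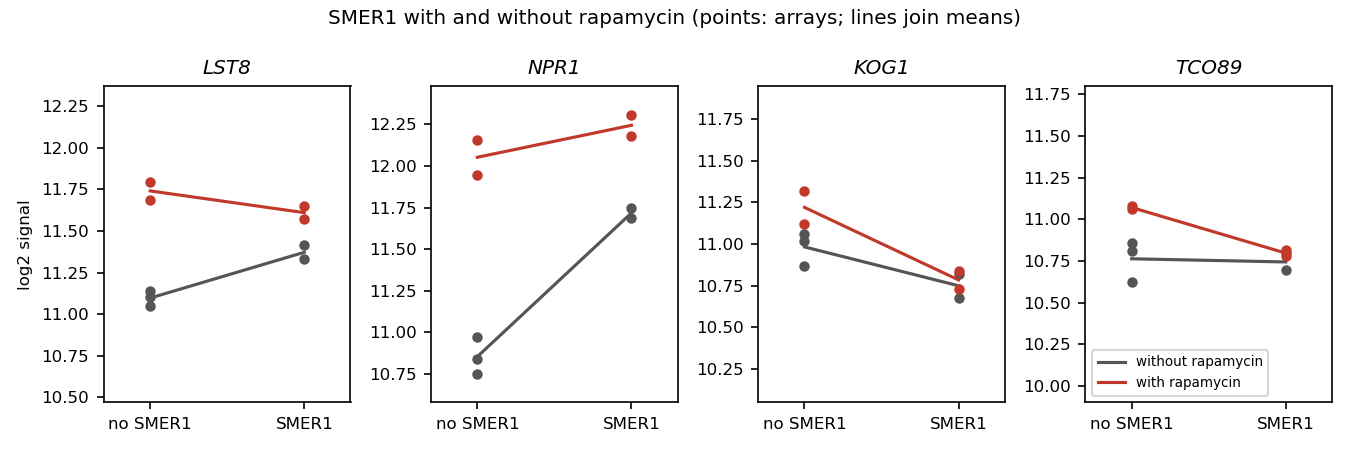
Log2 signal (y axis, the same span in every panel) of LST8, NPR1, KOG1 and TCO89 without and with SMER1 (x axis), in arrays without rapamycin (grey) and with it (red); points are arrays and lines join group means. The NPR1 line rises by 0.86 without rapamycin and by 0.19 with it, and the KOG1 lines both fall.

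On the lone SMER3 array LST8, TAP42 and NPR1 were higher than with DMSO and SCH9 was lower. LST8 rose 2.94-fold against DMSO (1.56 ± 0.09, adjusted p = 1.88e-05 by limma), a change larger in size than that of 93.9% of all genes. TAP42 rose 1.43-fold (0.52 ± 0.08, adjusted p = 0.00189), NPR1 rose 1.56-fold (0.64 ± 0.12, adjusted p = 0.00512) and SCH9 fell 1.74-fold (−0.80 ± 0.21, adjusted p = 0.0225). The SCH9 call was lost without DMSO replicate 2 or DMSO replicate 3 (−0.71 and −0.76, adjusted p = 0.0529 and 0.0537). With SMER3, 4 of 9 genes were called, 3 higher and 1 lower, where 36.4% of all genes were called, 21.6% higher and 14.8% lower. These values have no replicate check, since the SE of a single array borrows its spread from the treatments with replicates.

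Both kinase genes, and the genes of both TORC1-specific subunits, had their lowest value on the SMER3 array. TOR1 lay at 10.56, TOR2 at 11.18, KOG1 at 10.65 and TCO89 at 10.54, each below all 3 DMSO arrays. The share of all genes with their lowest value on this array is not given here, and 14.8% of all genes were called lower with SMER3. The differences from DMSO were −0.60 ± 0.21, −0.31 ± 0.23, −0.33 ± 0.12 and −0.23 ± 0.11, and none was called (adjusted p = 0.0605, 0.327, 0.0693 and 0.135 by limma). TOR1 and KOG1 were called after quantile normalisation (−0.68 and −0.40, adjusted p = 0.0334 and 0.0252), and KOG1 and TCO89 were called without DMSO replicate 3 (−0.39 and −0.30, adjusted p = 0.0473 and 0.0339). SIT4 lay at 11.82, within the DMSO range.

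SMER2, SMER4 and SMER5 gave no called TOR gene, 0 of 9 in each, and also 0 of 9 at an unadjusted p under 0.05 by limma. Of all genes 0.312% were called with SMER2, 0% with SMER4 and 0% with SMER5. The differences of the 9 genes from DMSO lay between −0.14 and 0.09 with SMER2, between −0.19 and 0.09 with SMER4 and between −0.10 and 0.17 with SMER5. The 95% intervals for NPR1 were −0.25 to 0.32, −0.40 to 0.17 and −0.31 to 0.26, and those for LST8 were −0.34 to 0.06, −0.20 to 0.20 and −0.03 to 0.37. For each of these 3 compounds the NPR1 interval thus ended below the 0.86 estimated for SMER1 at the same dose and time, and the LST8 interval below the 1.56 estimated for SMER3. The smaller LST8 change estimated for SMER1, 0.27, lay above the SMER2 and SMER4 intervals but inside that of SMER5. These reference estimates carry errors of their own. LST8 lay outside the DMSO range on the SMER2 array (10.96, below) and on the SMER5 array (11.27, above). TCO89 lay above its DMSO range on the SMER5 array. On the SMER4 array TOR2, TAP42 and NPR1 lay below their DMSO ranges and SIT4 above. None of these differences was called, and the share of all genes outside the DMSO range on these arrays is not given here.

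The spread between replicates was not the same for all TOR genes. The residual SD was 0.21 for TOR1, 0.23 for TOR2 and 0.21 for SCH9, larger than that of 83.2%, 86% and 83.6% of all genes, and 0.04 for TAP42 and 0.06 for LST8, larger than that of 4.9% and 13.2%. The median over all genes was 0.11. In each of the 4 replicated groups the array numbered 1 was the highest for TOR1, TOR2, KOG1 and NPR1 and the lowest for SCH9 and SIT4. For TOR1 it lay above the mean of the other arrays of its group by 0.34 in DMSO, 0.33 in Rapa, 0.31 in SMER1 and 0.26 in SMER1+Rapa. For SCH9 it lay below them, with differences of −0.39, −0.18, −0.29 and −0.35. Over all genes, the array numbered 1 was the highest in all 4 groups for 28.3% and the lowest in all 4 for 17.8%. The part of this difference in the results was not tested beyond the fit with the replicate number as a block, whose values stand with the other processing choices.

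**Figure D4:**
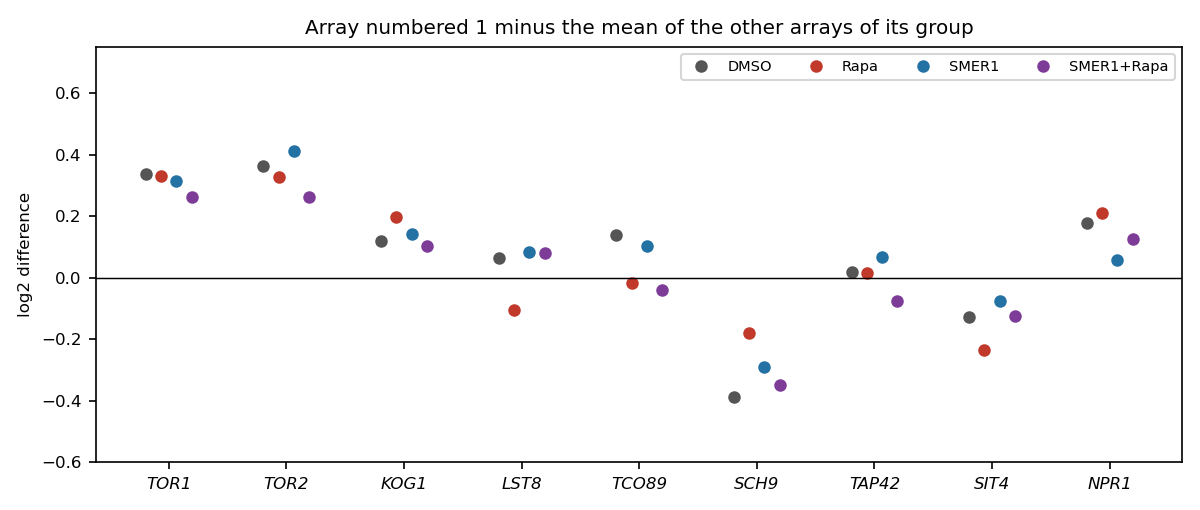
Log2 signal of the array numbered 1 minus the mean of the other arrays of its group (y axis) for the 9 measured TOR genes (x axis), in the 4 groups with replicates (colours). TOR1 and TOR2 lie between 0.26 and 0.41 and SCH9 between −0.39 and −0.18 in every group.

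For the 2 genes whose group means spanned at least 1 log2 unit, LST8 (1.70) and NPR1 (1.50), the genes with the most similar pattern were looked up among 2262 other genes with such a span. Over the 8 group means, which share arrays and include 4 single arrays, LST8 was most like BSC5 (r = 0.995), YNR068C (r = 0.992) and PIG2 (r = 0.990). LST8 reached the required span only through the lone SMER3 array (12.65), as its other group means lay between 10.96 and 11.74. Its r values thus lean on that unreplicated array. NPR1 was most like the succinate dehydrogenase subunit gene SDH4 (r = 0.994), UGX2 (r = 0.992) and the glutathione-degrading enzyme gene ECM38 (r = 0.991). The span of BSC5 was 3.42 and that of SDH4 was 1.29.

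Around these members, 74 other genes of the TOR pathway in 6 lists were read in the same fit. Of 9 genes of TORC2 subunits and effectors, 3 rose and 0 fell with rapamycin, and 4 rose and 0 fell with SMER1 and with SMER1+Rapa. That is 33.3%, 44.4% and 44.4% called, beside 60.1%, 61.5% and 70.8% of all genes, with median changes of 0.17, 0.10 and 0.22 beside 0.16, 0.09 and 0.09. YPK2, a kinase activated by TORC2, rose from a DMSO mean of 9.17 by 1.37 ± 0.14, 1.62 ± 0.14 and 1.98 ± 0.14 in the 3 treatments (adjusted p = 0.000138, 5.71e-05 and 1.11e-05 by limma).

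Of 18 genes of PP2A and PP2A-like phosphatases, 6 rose and 5 fell with rapamycin, and 9 rose and 4 fell with SMER1 and with SMER1+Rapa, with medians of −0.01, 0.23 and 0.20. The shares called were 61.1%, 72.2% and 72.2%, near those of all genes (60.1%, 61.5% and 70.8%). SAP185, a partner subunit of Sit4, fell from a mean of 11.29, with changes of −1.02 ± 0.15 with rapamycin, −1.38 ± 0.15 with SMER1 and −2.17 ± 0.15 with SMER1+Rapa (adjusted p = 0.000767, 0.000147 and 8.34e-06 by limma), the last a 4.51-fold fall. PPM1 and PPE1, which encode the carboxyl methyltransferase and methylesterase of PP2A, rose with SMER1 by 1.28 ± 0.06 and 1.17 ± 0.07 and with SMER1+Rapa by 1.58 ± 0.06 and 1.45 ± 0.07 (all adjusted p at or below 9.97e-06 by limma). They were also called higher with rapamycin, by 0.88 ± 0.06 and 0.93 ± 0.07 (adjusted p = 2.34e-05 and 3.05e-05 by limma). With SMER1+Rapa, RRD2, an activator of PP2A, rose by 1.02 ± 0.12 (adjusted p = 0.000151 by limma). PPH3, the catalytic subunit of a PP4-type phosphatase, had a change of −1.23 ± 0.12 (adjusted p = 5.34e-05). RRD2 was also called higher with rapamycin and with SMER1, by 0.48 ± 0.12 and 0.79 ± 0.12 (adjusted p = 0.0101 and 0.00081 by limma). PPH3 was also called lower with each, with changes of −0.58 ± 0.12 and −0.82 ± 0.12 (adjusted p = 0.00419 and 0.000706).

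Of 16 genes of the EGO and SEA complexes and other inputs to TORC1, 9 rose and 1 fell with rapamycin, and 4 rose and 2 fell with SMER1 and with SMER1+Rapa, with medians of 0.26, 0.03 and 0.19. The shares called were 62.5%, 37.5% and 37.5%, beside 60.1%, 61.5% and 70.8% of all genes. IML1, a subunit of the complex that restrains TORC1 when amino acids are scarce, rose 2.01-fold with rapamycin (1.01 ± 0.11, adjusted p = 0.000201 by limma) and was lower with SMER1+Rapa than with rapamycin alone (−0.79 ± 0.12, adjusted p = 0.00222).

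Of 12 genes of Sch9 branch kinases and nuclear targets, 3 rose and 1 fell with rapamycin, 5 rose and 3 fell with SMER1, and 7 rose and 3 fell with SMER1+Rapa, with medians of 0.13, 0.27 and 0.33. The shares called were 33.3%, 66.7% and 83.3%, beside 60.1%, 61.5% and 70.8% of all genes. IFH1, a coactivator of ribosomal protein genes, fell from a mean of 11.58, with changes of −1.02 ± 0.12 with SMER1 and −1.95 ± 0.12 with SMER1+Rapa (adjusted p = 0.000181 and 4.16e-06 by limma). IFH1 was also called lower with rapamycin alone, with a smaller change of −0.67 ± 0.12 (adjusted p = 0.00169 by limma). CRF1, which encodes a corepressor of the same genes, was called higher in the 3 treatments (adjusted p = 0.0151, 0.00231 and 0.000944), with means of 5.96 with DMSO, 6.99 with rapamycin, 7.49 with SMER1 and 7.69 with SMER1+Rapa. These CRF1 means lie within or below the range of the deleted LEU2 (6.29 to 8.61), so the signal was not shown to be above background and no fold is given. On the lone SMER3 array IFH1 was lower than DMSO by 3.02-fold (−1.60 ± 0.15, adjusted p = 0.000168), and CRF1 lay at 8.85.

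Of 12 genes of Npr1-related kinases and Npr1 substrates, 6 rose and 0 fell with rapamycin, and 9 rose and 1 fell with SMER1 and with SMER1+Rapa, with medians of 0.30, 0.57 and 0.77 beside 0.16, 0.09 and 0.09 over all genes. The shares called were 50%, 83.3% and 83.3%, beside 60.1%, 61.5% and 70.8% of all genes, of which 39.7%, 36.5% and 39.6% were higher. The kinase genes RTK1 and PTK2 rose with SMER1 by 1.40 ± 0.13 and 1.25 ± 0.08 (adjusted p = 6.64e-05 and 1.21e-05 by limma). With SMER1+Rapa they rose by 1.43 ± 0.13 and 1.33 ± 0.08, and the kinase gene KKQ8 by 1.03 ± 0.10 (adjusted p = 3.39e-05, 4.17e-06 and 4.21e-05). KKQ8 was also called higher with SMER1, by 0.80 ± 0.10. Rapamycin alone raised RTK1, PTK2 and KKQ8 by 0.57 ± 0.13, 0.69 ± 0.08 and 0.45 ± 0.10, all called (adjusted p = 0.00658, 0.00022 and 0.005 by limma). RTK1, PTK2 and KKQ8 were also higher with SMER1+Rapa than with rapamycin alone, by 0.86 ± 0.14, 0.64 ± 0.09 and 0.58 ± 0.11 (adjusted p = 0.00259, 0.00115 and 0.00412). PRR2, another kinase gene, was called higher with SMER1 and with SMER1+Rapa (adjusted p = 0.00554 and 0.000243), with means of 6.87 with DMSO, 7.88 with SMER1 and 8.62 with SMER1+Rapa. The DMSO and SMER1 means of PRR2 lie within the range of the deleted LEU2, so that signal was not shown to be above background.

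Of 7 immunophilin genes other than FPR1, 3 rose and 1 fell with rapamycin, and 2 rose and 3 fell with SMER1 and with SMER1+Rapa, with medians of 0.28, −0.08 and −0.20. The shares called were 57.1%, 71.4% and 71.4%, near those of all genes (60.1%, 61.5% and 70.8%). FPR4, a nuclear member of the FKBP family that acts on histones, fell from a mean of 12.95, with changes of −1.33 ± 0.11, −1.13 ± 0.11 and −1.97 ± 0.11 in the 3 treatments (adjusted p = 4.40e-05, 8.71e-05 and 3.12e-06 by limma). On the SMER3 array FPR4 lay at 12.97, a difference of 0.02 ± 0.14 from DMSO (adjusted p = 0.920).

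**Figure D5:**
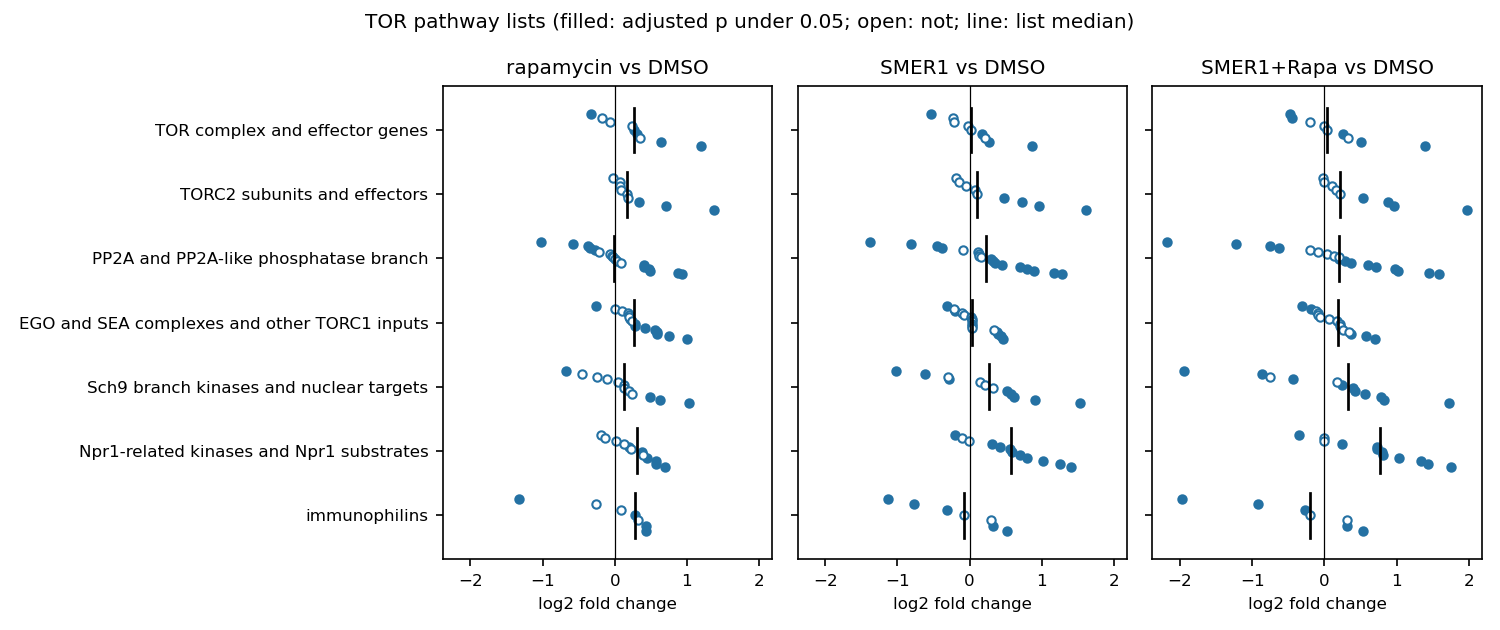
Log2 fold change against DMSO (x axis) of each gene of the TOR members and of the 6 other pathway lists (y axis) with rapamycin, SMER1 and SMER1+Rapa; filled points were called at an adjusted p under 0.05, open points were not, and lines are list medians. With SMER1+Rapa the list of Npr1-related kinases has a median of 0.77, and single genes reach −2.17 (SAP185) and 1.98 (YPK2).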

How the data were processed

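Per the labels, biotin-labelled RNA was hybridised to Affymetrix arrays of 1 colour. The deposited values were taken as log2 signals, since all lay between 0 and 14.67. The authors' steps from probe intensity to these values are not stated in the labels or the table. Precision is limited by the small number of arrays.

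Of 5716 probe sets, 5498 had 1 gene name, with 12 symbols updated through the R64 gene table. The probe set with the highest mean was kept for each of 5449 genes. A mean per group was fitted to each gene on all 13 arrays with limma 3.58.1 (lmFit and eBayes, R 4.3.3), two-sided, with Benjamini-Hochberg adjustment over all genes. The fit was tested on simulated data with independent noise on each array. That test does not cover a difference shared by the arrays numbered 1. The residual degrees of freedom were 5 and the prior ones 2.36.

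The members and lists were chosen with earlier results of these data known. Named from the other lists were genes called with a log2 change of at least 1 with rapamycin, SMER1 or SMER1+Rapa against DMSO. The alternatives were quantile normalisation, median centring, a filter on the lowest 25% of genes, averaging of probe sets, other groups left out of the fit, an intensity trend, the replicate number as a block, and leaving out each array. No gene sequences or promoter motifs were analysed here.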

Additional observations from a re-analysis of the deposited data

Results flagged for a closer look

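For NPR1, the effect of SMER1 was smaller in the presence of rapamycin than in its absence, by −0.67 on the log2 scale (adjusted p = 0.0133 by limma). For LST8 the same difference was −0.41 (adjusted p = 0.0253). Both were picked out because the difference between the 2 effects itself passed the test. Over all genes 25.7% passed it, 21.3% negative, with a median of −0.18, beside 2 of 9 TOR genes. Each of the 2 calls was lost in at least 1 run with an array left out. No group had the 4 arrays needed to look for a single array far from the others.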

How the results depend on the processing

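Across the 90 differences of TOR genes (9 genes in 10 comparisons), 26 were called, and 10 of these stayed called in every alternative run. They include all differences of NPR1 from DMSO with rapamycin, SMER1, SMER1+Rapa and SMER3, and those of LST8 except with SMER1. No called difference changed sign under any alternative. Leaving out 1 array at a time gave 3 to 6 TOR genes called with rapamycin (5 with all arrays), 1 to 3 with SMER1 (4), 0 to 2 for SMER1+Rapa against rapamycin (2), 0 to 4 for SMER1 against rapamycin (4) and 0 to 2 for the interaction (2). The lowest counts over all genes were 1643, 1244 and 816 in the last 3 comparisons, against 2527, 2006 and 1401. The all-gene counts with rapamycin and with SMER1 were also lower in every run with 1 array left out. For SMER1+Rapa against rapamycin, quantile normalisation and median centring each left 1 TOR gene. For SMER1 against rapamycin, a fit on those 2 groups alone left 1. With an intensity trend, TAP42 was no longer called with SMER1 (adjusted p = 0.0817) and TOR1 was called with SMER3 (adjusted p = 0.0369). Over all genes, the 17 calls with SMER2 ranged from 2 to 11 under quantile normalisation, the fit on compared groups alone and the leaving out of arrays.

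The replicate number as a block is reported only here, because it was not shown that every number pairs the arrays. Deviations of arrays numbered 1 correlated between groups with r from 0.430 to 0.598. Those of arrays numbered 2 correlated with r from 0.070 to 0.131 in pairs with DMSO, which has 3 arrays. Between groups of 2 arrays the r of number 2 equals that of number 1 by construction. The main fit has no term for the number, so a difference shared by arrays numbered 1 stays in its residual spread. With the replicate block, 4 TOR genes were called for SMER1+Rapa against rapamycin, 1 with SMER2 and 8 with SMER3, and 16 of the 90 differences were gained and 1 was lost (TAP42 with SMER1, adjusted p = 0.0560). TOR1 was then called with rapamycin, SMER1 and SMER1+Rapa (0.28, 0.15 and 0.25, adjusted p = 0.00248, 0.0281 and 0.00301), lower with SMER2 (−0.36, adjusted p = 0.0313) and lower with SMER3 (−0.82, adjusted p = 0.000288). SCH9 was called lower than rapamycin with SMER1 and with SMER1+Rapa (−0.35 and −0.30, adjusted p = 0.00953 and 0.0133). KOG1 was called against DMSO with rapamycin, SMER1, SMER1+Rapa and SMER3 (adjusted p = 0.0287, 0.00468, 0.00670 and 0.00432), as was SIT4 with SMER1 (adjusted p = 0.0144). Over all genes the block gave 3585 calls for SMER1+Rapa against rapamycin and 2850 with SMER3, against 2527 and 1983 without it. The block gave 3057 for SMER1 against rapamycin, 2377 for the interaction, 513 with SMER2 and 82 with SMER5, against 2006, 1401, 17 and 0. This fit counted each lone array as an array numbered 1, so its lone-array calls rest on that coding. TOR1 lay at 11.02, 11.06 and 11.06 on the SMER2, SMER4 and SMER5 arrays. On the DMSO arrays numbered 1, 2 and 3 it lay at 11.38, 11.08 and 11.01. The cause of the added calls was not tested.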
